A study of Mus musculus with 8 samples.

Results

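The genes described here carry glucose into heart cells, split it to pyruvate and lactate, and store it as glycogen. They were chosen by name, as 38 genes among the 30153 genes of the deposited table: 5 glucose transporters, 9 genes of upper glycolysis, 4 of the enzymes that set fructose-2,6-bisphosphate, 7 of lower glycolysis, 4 of lactate handling, 2 arrestin-domain genes that restrain glucose uptake and 7 of glycogen metabolism. The 8 heart libraries fall into 4 from aged mice on a western diet, in general a high-fat, high-sugar feed, and 4 from aged mice called control here. The group label of the control mice names no diet. Both groups are of strain C57/BL6 and carry haplotype II of the human gene for the angiotensin II type 1 receptor. No group without the human receptor gene was analysed here, and the labels give no sex, exact age, promoter of the human gene, feeding length, fasting state or time of collection. Nothing in the labels says that the libraries are separate animals, so a p-value here reflects only how far these 8 samples scatter.

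A working heart burns mostly fatty acids and takes a smaller, adjustable part of its energy from glucose and lactate. Glucose enters through the insulin-responsive transporter GLUT4 and the basal transporter GLUT1, is trapped by hexokinase and is committed to glycolysis by phosphofructokinase. Several steps have a form that prevails in muscle and a form found in most tissues, encoded by separate genes such as Pgam2 and Pgam1. Lactate dehydrogenase is built from a muscle-type subunit (Ldha) and a heart-type subunit (Ldhb), and lactate crosses the membrane through monocarboxylate transporters. Glycogen is a reserve of glucose inside the muscle cell itself.

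Each library lists TPM (transcripts per 1000000 transcripts), a level per transcript length, so genes can be compared with each other. Read depth cannot be recovered from TPM and is unknown, and between 10620 and 11175 genes reached 1 TPM per library. The tissue label was matched by ventricular muscle genes, whose 8 markers summed to 41040 to 51280 TPM with western diet and 48800 to 53090 TPM in control. In bulk tissue, fewer cells of a type and less RNA per cell cannot be told apart. Libraries differed in ways the labels do not explain. Transcripts of the Y-linked gene Eif2s3y were near 0 in western diet replicates 1, 2 and 3 (up to 0.0231 TPM) and at 22.3 TPM in replicate 4, against 21.1 to 29.04 TPM in the controls. Diet and this difference in Y-linked transcripts cannot be told apart in those 3 libraries. The atrial gene Myl7 stood out in western diet replicate 2, at 335 TPM, and in control replicates 1 and 3, at 184 and 1403 TPM, while the remaining 5 libraries held 1.10 to 2.87 TPM. Mitochondrially encoded genes took 27.3% to 39.3% of TPM with western diet and 34.6% to 36.5% in control.

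Of the 38 genes, 34 reached at least 1 TPM in at least 4 libraries and were tested, and each of these 34 did so in all 8. The other 4 were Slc2a3, Pfkfb4, Aldoc and Slc16a3, and their values are described without a test. None of the 34 passed an adjusted p of 0.05 (limma on log2(TPM + 1), adjusted over 10969 genes), where 0.301% of all genes tested did. Their median difference, western diet minus control, was 0.04 on the log2 scale against 0.06 over all genes, with 19 higher and 15 lower in mean, where 7286 of 10969 genes were higher. That split depended on the scaling, with 12 higher and 22 lower after median-of-ratios scaling, and 15 higher and 19 lower after quantile normalization. At an unadjusted p under 0.05 there were 7 of 34, 4 higher and 3 lower, against a background of 11.7%. In 5 of 34 the 4 western diet libraries all lay on one side of the 4 controls, against 6.60% of all genes. Those 5 were Pfkl and Pgam1 on the higher side and Slc2a1, Hk2 and Eno3 on the lower side; Pfkp and Txnip make up the 7. The 95% intervals of the 34 genes had a median half-width of 0.22 on the log2 scale, against 0.27 over all genes.

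**Figure D1:**
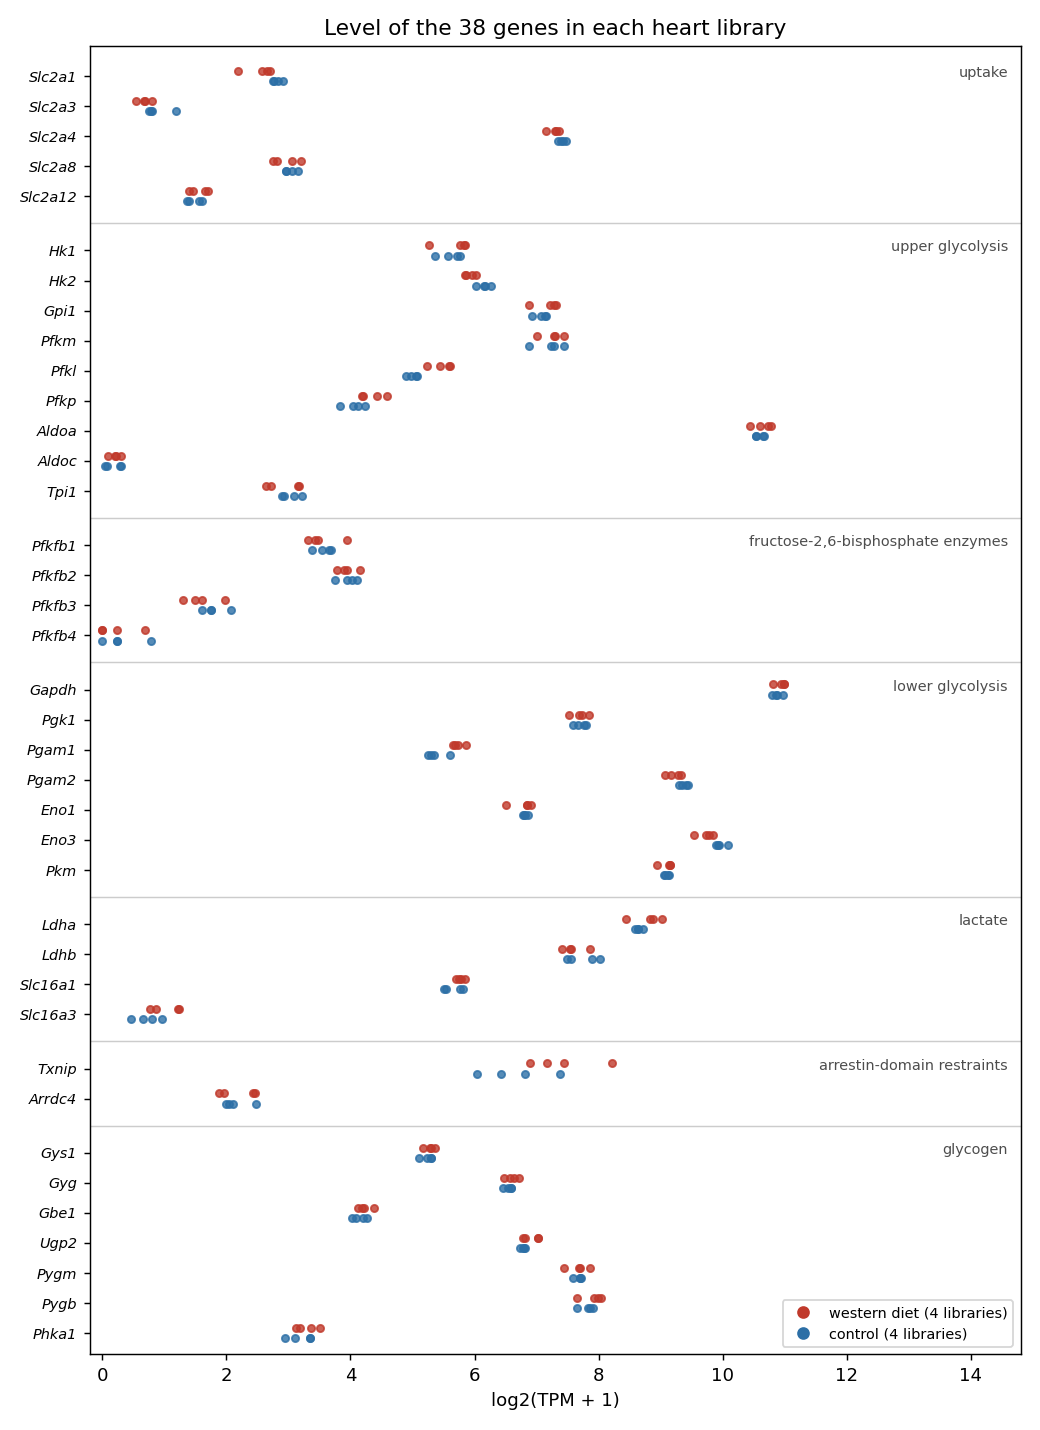
Level of the 38 genes as log2(TPM + 1), 1 point per library, western diet above control within each gene and genes grouped by step. Levels ran from near 0 for Aldoc and Pfkfb4 to over 10 on this scale for Gapdh and Aldoa, and the groups lay close together for most genes.

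**Figure D2:**
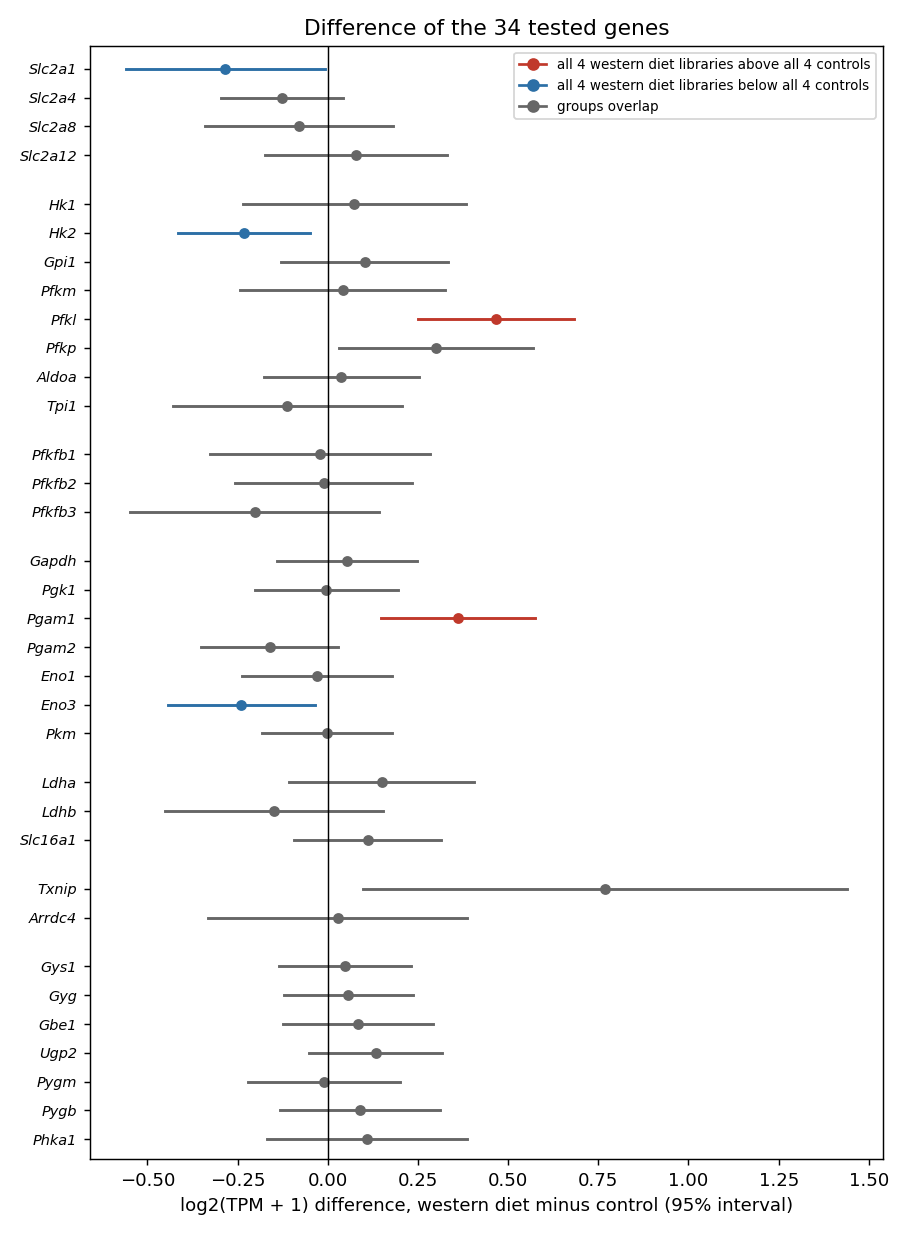
Difference in log2(TPM + 1), western diet minus control, for the 34 genes tested, with 95% intervals from limma; colour marks genes whose 2 groups do not overlap. Pfkl at 0.47 and Pgam1 at 0.36 lay furthest above 0 among the genes whose groups did not overlap, and Txnip had the widest interval.

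Slc2a4, which encodes GLUT4, held most of the summed TPM of the transporter genes. Slc2a4 and Slc2a1 both had lower means with western diet without passing the test. Slc2a4 was at 157, 158, 163 and 142 TPM with western diet, against 167, 162, 170 and 176 TPM in control. A single western diet library, replicate 3, lay above the lowest control, so the groups just overlapped. The difference was -0.13 on the log2 scale (95% interval -0.30 to 0.04, limma adjusted p = 0.562). Slc2a1 (chromosome 4, 119108711 to 119137983, in GRCm38 as for all coordinates here), which encodes GLUT1, was at 5.49, 5.33, 4.98 and 3.54 TPM with western diet, against 6.14, 5.73, 5.80 and 6.50 TPM in control. All 4 western diet libraries were below all 4 controls, and the mean ratio was 0.800 (log2 difference -0.28, SE 0.13, limma adjusted p = 0.417). The lowest value came from western diet replicate 4, and without that library the log2 difference was -0.17 (limma adjusted p = 0.408; range over the alternatives 0.131 to 0.667).

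Slc2a8 (GLUT8, mainly an intracellular transporter) averaged 6.82 ± 1.12 TPM with western diet and 7.21 ± 0.559 TPM in control (SD, n = 4 each, as for all means below). Slc2a12 (GLUT12) averaged 1.96 ± 0.314 TPM with western diet and 1.80 ± 0.232 TPM in control. Slc2a3 (GLUT3, best known from neurons) was under 1 TPM in all libraries except control replicate 3, at 1.27 TPM. Slc2a4 made up 90.5% to 92.6% of the summed transporter TPM with western diet and 91.03% to 91.6% in control, so the makeup of the transporter pool was alike in range. The 5 transporters summed to 169 ± 10.7 TPM with western diet and 185 ± 6.76 TPM in control.

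In upper glycolysis, Hk2 was lower and Pfkl higher in all 4 western diet libraries than in any control, neither past the test. Hk2 (chromosome 6, 82725025 to 82774454), the insulin-responsive hexokinase of muscle, was at 61.3, 63.8, 57.4 and 56.4 TPM with western diet, against 70.1, 75.9, 64.2 and 71.3 TPM in control. The highest western diet value lay just under the lowest control, and the mean was 15.1% lower (log2 difference -0.23, SE 0.08, limma adjusted p = 0.303). Hk1, the hexokinase of most tissues, was at 53.4, 55.8, 56.7 and 37.4 TPM with western diet, against 46.6, 40.1, 53.7 and 51.4 TPM in control. Its 3 highest western diet values were near or above the top control, while replicate 4 was the lowest of all 8 (log2 difference 0.07, SE 0.14, limma adjusted p = 0.888; -0.01 after median-of-ratios scaling). Hk1 made up 45.7 ± 4.12% of the pair's TPM with western diet and 40.5 ± 4.58% in control, and these ranges overlapped.

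The 3 phosphofructokinase genes stood in different proportions in the groups. Pfkl (ENSMUSG00000020277, chromosome 10, 77986947 to 78010083), the liver-type subunit, was at 46.9, 47.8, 42.4 and 36.7 TPM with western diet, against 30.5, 28.9, 32.2 and 32.7 TPM in control. Every western diet library lay above every control, and the mean was 39.9% higher. This was the smallest adjusted p of the 34 genes (log2 difference 0.47, SE 0.10, 95% interval 0.25 to 0.68, limma adjusted p = 0.0811). It passed in 4 of 18 alternative settings, with adjusted p between 0.0215 and 0.257: without western diet replicate 4 (adjusted p = 0.0215), with library weights (adjusted p = 0.0230), after quantile normalization (adjusted p = 0.0234) and after median-of-ratios scaling (adjusted p = 0.0312). A term for Y-linked transcripts, under which the estimate rests on western diet replicate 4, gave 0.24 (SE 0.12, adjusted p = 0.671). The difference was 0.43 (SE 0.16, adjusted p = 0.729) once the 3 libraries high in Myl7 were left out.

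Pfkp, the platelet-type subunit, was at 17.4, 20.6, 23.1 and 17.2 TPM with western diet, against 17.9, 13.2, 15.4 and 16.4 TPM in control. Control replicate 1 lay above a pair of western diet libraries, so the groups overlapped (log2 difference 0.30, SE 0.12, limma adjusted p = 0.376). Pfkm, the muscle subunit and the most abundant of the 3, averaged 153 ± 18.5 TPM with western diet and 149 ± 23.6 TPM in control, with overlapping ranges. As a share of the 3 genes, Pfkm was at 70.8%, 71.6%, 70.3% and 70.3% with western diet, against 75.6%, 73.6%, 76.5% and 78.0% in control. Pfkl took 21.3%, 19.8%, 19.2% and 20.2% with western diet, against 15.4%, 18.1%, 15.9% and 14.7% in control. Neither share overlapped between the groups. A share within a library does not move with how that library is scaled. These shares combine chosen genes and were given no p-value.

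**Figure D3:**
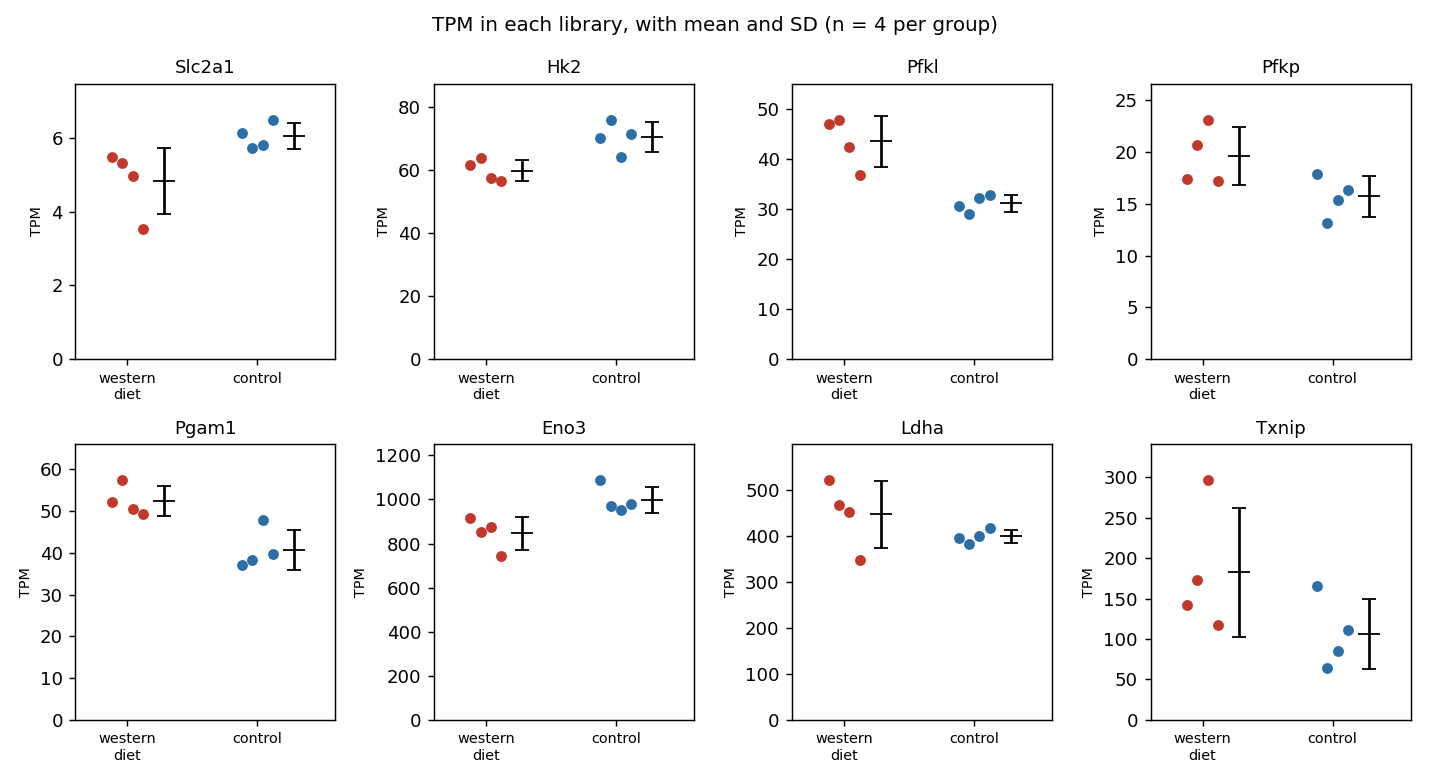
TPM in each library for 8 of the genes, western diet left of control, with mean and SD (n = 4 per group) beside the points and each axis starting at 0. Pfkl and Pgam1 were higher and Slc2a1, Hk2 and Eno3 lower in all 4 western diet libraries than in any control, while Pfkp, Ldha and Txnip overlapped.

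The other upper steps differed little in mean. Gpi1, which turns glucose-6-phosphate into fructose-6-phosphate, averaged 144 ± 18.5 TPM with western diet and 134 ± 9.28 TPM in control. Aldoa, the muscle aldolase, was at 1749, 1694, 1555 and 1389 TPM with western diet, against 1603, 1490, 1489 and 1622 TPM in control. These ranges overlapped, and only Gapdh had a higher mean level among the 38. Aldoc, the brain-type aldolase, was at no more than 0.239 TPM with western diet and 0.240 TPM in control. Tpi1, triose phosphate isomerase, was listed at 5.23 to 7.98 TPM with western diet and 6.45 to 8.32 TPM in control, far below its neighbours in the pathway. No other row of the table with a value above 0 met the criterion for a near-identical copy of Tpi1.

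Among the bifunctional enzymes that make and remove fructose-2,6-bisphosphate, the activator of phosphofructokinase, none of the 3 tested genes was at an unadjusted p under 0.05. Pfkfb2, the heart form, was at 12.8, 16.8, 14.5 and 13.9 TPM with western diet, against 14.4, 12.4, 15.3 and 16.3 TPM in control, with the ranges almost the same. Pfkfb1, on the X chromosome, averaged 10.8 ± 2.43 TPM with western diet and 10.9 ± 1.11 TPM in control. Pfkfb3, the inducible form, averaged 2.07 ± 0.635 TPM with western diet and 2.50 ± 0.497 TPM in control (limma adjusted p = 0.664). Pfkfb4 stayed at or below 0.615 TPM with western diet and 0.727 TPM in control.

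In lower glycolysis the general form of phosphoglycerate mutase was higher in mean with western diet, and the muscle forms of mutase and enolase were lower, none past the test. Pgam1 (chromosome 19, 41911923 to 41918660), the phosphoglycerate mutase of most tissues, was at 52.2, 57.4, 50.6 and 49.4 TPM with western diet, against 37.0, 38.3, 47.8 and 39.6 TPM in control. All 4 western diet libraries were above all controls, with control replicate 3 close behind, and the mean was 28.8% higher (log2 difference 0.36, SE 0.10, limma adjusted p = 0.169). Pgam2, the muscle form, was at 576, 641, 537 and 619 TPM with western diet, against 694, 682, 649 and 625 TPM in control. Its groups overlapped through a single western diet library, replicate 2 (limma adjusted p = 0.499). Pgam1 made up 8.30%, 8.22%, 8.60% and 7.39% of the pair's TPM with western diet, against 5.06%, 5.31%, 6.85% and 5.97% in control, with no overlap. The processed pseudogene Pgam1-ps2, which matched Pgam1 at 100% identity over its whole length, averaged 5.90 TPM with western diet and 2.12 TPM in control, and reads from this pseudogene and from Pgam1 cannot be told apart. With near-identical copies added, Pgam1 still did not pass.

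Eno3 (chromosome 11, 70657202 to 70662513), the muscle enolase, was at 914, 852, 876 and 742 TPM with western diet, against 1087, 971, 953 and 979 TPM in control. The groups did not overlap and the mean was 15.2% lower (log2 difference -0.24, SE 0.09, limma adjusted p = 0.352). Eno1, the general enolase, averaged 110 ± 12.8 TPM with western diet and 111 ± 2.49 TPM in control, with replicate 4 of the diet group lowest at 90.5 TPM. The Eno1 share of the pair was 11.1%, 11.8%, 11.9% and 10.9% with western diet, against 9.12%, 10.2%, 10.5% and 10.5% in control. These ranges did not overlap either.

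Of the shares computed, those of Pfkl, Pgam1 and Eno1 were higher and that of Pfkm lower with western diet without overlap, while those of Hk1, Pfkp, Ldha, Pygb and Slc2a4 overlapped. The shares without overlap hold Pfkl, Pgam1 or Eno3, which did not overlap as single genes either, so they are not separate results. The Pfkl and Pfkm shares are also parts of the same sum. How often shares of other genes do not overlap was not computed. The share of Slc2a1 in the sum of Slc2a1 and Slc2a4 was 3.02 ± 0.424% with western diet and 3.45 ± 0.123% in control, and also overlapped.

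Some markers of other tissues and cell types differed between the groups. The markers were chosen by name. Those tested were 8 ventricular, 4 atrial, 4 skeletal muscle, 5 red cell, 6 fibroblast, 5 endothelial and 6 macrophage markers. A further 2 neutrophil, 5 smooth muscle and pericyte, 1 kidney and 4 Y-linked markers were tested. Of all these tested markers, 4 passed, where 0.301% of all genes tested did. Kap, a kidney gene, was at 9.58, 7.15, 13.4 and 72.1 TPM with western diet, against 0.685, 0.0717, 0 and 0.239 TPM in control (limma adjusted p = 0.0169). The 4 kidney markers, 1 of them tested, summed to 9.02 to 79.0 TPM with western diet and 0 to 0.685 TPM in control. These sums were mostly Kap. Miox was at 0.601 to 2.73 TPM and Slc34a1 at 0.259 to 2.86 TPM with western diet, and both were at 0 TPM in every control. Umod was at 0 TPM in western diet replicates 1 and 3, as in the controls, so its groups overlapped.

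Cldn5, an endothelial junction gene, averaged 17.3 ± 1.38 TPM with western diet and 8.57 ± 0.992 TPM in control (limma adjusted p = 0.00527), while the 5 endothelial markers summed to 152 to 167 TPM with western diet and 131 to 162 TPM in control. Tagln, of smooth muscle, was at 7.92 to 10.9 TPM with western diet and 16.2 to 21.1 TPM in control (limma adjusted p = 0.0169). Pdgfrb was also lower without overlap, at 10.1 to 12.1 TPM with western diet and 13.6 to 15.8 TPM in control. Acta2 went the other way without overlap, at 47.9 to 117 TPM with western diet and 26.3 to 39.15 TPM in control. Myh11, lower in mean, and Rgs5, slightly higher, overlapped. The 5 smooth muscle and pericyte markers summed to 201 to 275 TPM with western diet and 180 to 211 TPM in control. S100a8, of neutrophils, averaged 3.83 ± 1.19 TPM with western diet and 1.34 ± 0.343 TPM in control (limma adjusted p = 0.0319). The 4 neutrophil markers, 2 of them tested, did not overlap in sum, at 8.50 to 16.4 TPM with western diet and 3.69 to 7.67 TPM in control. Apart from S100a8, each of these markers overlapped between the groups by itself. The 6 macrophage markers, all tested, summed to 105 to 172 TPM with western diet and 83.6 to 104 TPM in control. The macrophage sums did not overlap. By themselves, C1qa and C1qb were higher without overlap, while Adgre1, Cd68, Csf1r and Mrc1 overlapped. The 6 fibroblast markers, also all tested, summed to 93.7 to 116 TPM with western diet and 71.5 to 108 TPM in control, which overlapped. By itself, Col14a1 was higher without overlap, at 3.35 to 7.91 TPM with western diet and 1.915 to 3.25 TPM in control (limma adjusted p = 0.0744). Pdgfra, Dpt, Lum, Tcf21 and Col1a1 were higher in mean and overlapped. The 9 skeletal muscle markers, of which 4 were tested, summed to 144 to 455 TPM with western diet and 80.5 to 135 TPM in control, mostly Acta1. Among them Myh1, Myh2 and Myh4, which define fast skeletal fibres, were at no more than 0.0262 TPM with western diet and 0.174 TPM in control. Casq1, the calsequestrin of skeletal muscle, was lower without overlap, at 1.51 to 3.31 TPM with western diet and 4.44 to 6.29 TPM in control. Mylpf was too, at 0 to 0.364 TPM with western diet and 0.651 to 1.42 TPM in control. So was Pvalb, at 0 to 0.788 TPM with western diet and 1.04 to 1.13 TPM in control. Acta1 was higher without overlap, as was Tnnt3, at 0.4995 to 1.215 TPM with western diet and 0.219 to 0.493 TPM in control. Tnni2 overlapped. The 4 adipocyte markers, none of them tested, summed to 21.5 TPM in control replicate 3 and to 0.155 to 2.84 TPM in every other library. The part of other tissues and cell types in the shares, and in the differences of single genes, was not tested.

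**Figure D4:**
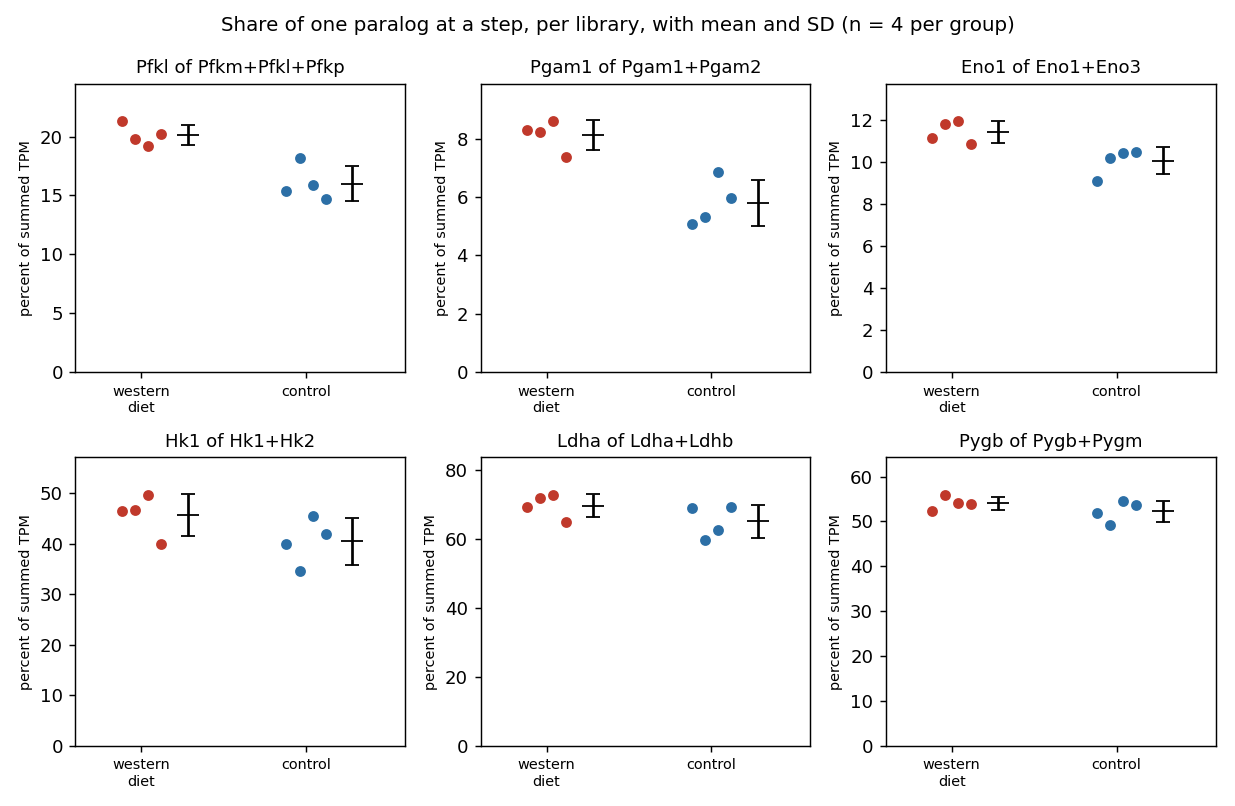
Share of a paralog in the summed TPM of its step, in percent per library, western diet left of control, with mean and SD (n = 4 per group). The shares of Pfkl, Pgam1 and Eno1 were higher in all 4 western diet libraries than in any control, and those of Hk1, Ldha and Pygb overlapped.

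The remaining lower steps overlapped between the groups. Gapdh, glyceraldehyde-3-phosphate dehydrogenase, was at 2031, 1958, 2024 and 1797 TPM with western diet, against 2006, 1859, 1771 and 1886 TPM in control, so the groups overlapped. It has 168 other rows with near-identical transcripts and a value above 0, which summed to 811 TPM with western diet and 703 TPM in control, so its level is uncertain. Pgk1, phosphoglycerate kinase on the X chromosome, averaged 207 ± 18.4 TPM with western diet and 207 ± 13.5 TPM in control, and its 2 copies summed to 64.0 TPM with western diet and 58.6 TPM in control. Pkm, pyruvate kinase, averaged 546 ± 38.7 TPM with western diet and 546 ± 13.9 TPM in control.

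Lactate dehydrogenase did not pass in either subunit. Ldha was at 521, 467, 453 and 346 TPM with western diet, against 396, 383, 399 and 418 TPM in control. Western diet replicates 1, 2 and 3 lay above every control, and replicate 4 lay below every control. Over all 8 libraries the log2 difference was 0.15 (SE 0.12, limma adjusted p = 0.669), and without replicate 4 of the diet group it was 0.27 (SE 0.08, limma adjusted p = 0.161; range over the alternatives 0.161 to 0.923). Ldhb was at 232, 184, 170 and 187 TPM with western diet, against 178, 259, 238 and 187 TPM in control (log2 difference -0.15, SE 0.14, limma adjusted p = 0.724). Both groups spread widely and overlapped. Ldha made up 69.6 ± 3.45% of the pair with western diet and 65.1 ± 4.73% in control.

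Slc16a1, which encodes the monocarboxylate transporter MCT1 of heart muscle, averaged 53.6 ± 2.37 TPM with western diet and 49.8 ± 5.44 TPM in control. Slc16a3, which encodes the lactate exporter MCT4, was at 1.33, 1.35, 0.833 and 0.709 TPM with western diet, against 0.954, 0.381, 0.736 and 0.574 TPM in control. It reached 1 TPM in 2 libraries, both of the western diet group, and its groups overlapped.

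Txnip and Arrdc4 encode arrestin-domain proteins that pull glucose transporters from the cell surface, and both genes are known targets of the glucose-sensing factor MondoA (Mlxip). Txnip (ENSMUSG00000038393, chromosome 3, 96557957 to 96561883) was at 143, 173, 296 and 118 TPM with western diet, against 165, 64.5, 85.0 and 111 TPM in control. The top value, western diet replicate 3, stood far above the rest, and control replicate 1 lay within the western diet range. The mean was 71.4% higher, with the widest interval of the 34 genes (log2 difference 0.77, SE 0.31, 95% interval 0.10 to 1.44, limma adjusted p = 0.363). Without western diet replicate 3 the log2 difference was 0.51. Arrdc4 was at 2.69, 2.88, 4.36 and 4.53 TPM with western diet, against 3.31, 2.995, 4.54 and 3.13 TPM in control. Its groups overlapped almost fully (log2 difference 0.03, SE 0.16, limma adjusted p = 0.970), and its direction turned after median-of-ratios scaling, at -0.03.

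Promoter windows of Txnip, Arrdc4 and Ldha are shown because these are textbook glucose- or hypoxia-responsive genes, from 250 bases before to 50 after the start site (RefSeq, GRCm38.p6). Capitals mark matches on either strand. The E-box was searched as CACGTG. One core of hypoxia response elements, which is also contained in the E-box, was searched as ACGTG. The other known core was searched with the letters GCGTG. The TATA box was searched by the letters TATAAA. The last motif was a pair of elements CACGNG that stand 5 bases apart, the layout of a carbohydrate response element.
Txnip, chr3:96557707-96558006, plus strand: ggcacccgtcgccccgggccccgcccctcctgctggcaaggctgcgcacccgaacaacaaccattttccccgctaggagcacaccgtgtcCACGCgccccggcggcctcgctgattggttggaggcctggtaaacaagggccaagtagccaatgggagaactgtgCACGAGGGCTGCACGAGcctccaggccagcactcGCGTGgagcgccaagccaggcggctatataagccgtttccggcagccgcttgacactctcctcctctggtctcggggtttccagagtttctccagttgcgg
Arrdc4, chr7:68749189-68749488, minus strand: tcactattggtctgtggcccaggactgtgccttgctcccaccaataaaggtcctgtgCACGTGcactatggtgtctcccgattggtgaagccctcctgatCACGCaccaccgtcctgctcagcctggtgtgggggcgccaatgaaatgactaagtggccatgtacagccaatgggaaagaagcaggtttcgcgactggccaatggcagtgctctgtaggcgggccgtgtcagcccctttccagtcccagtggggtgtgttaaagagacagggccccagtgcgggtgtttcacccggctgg
Ldha, chr7:46845554-46845853, plus strand: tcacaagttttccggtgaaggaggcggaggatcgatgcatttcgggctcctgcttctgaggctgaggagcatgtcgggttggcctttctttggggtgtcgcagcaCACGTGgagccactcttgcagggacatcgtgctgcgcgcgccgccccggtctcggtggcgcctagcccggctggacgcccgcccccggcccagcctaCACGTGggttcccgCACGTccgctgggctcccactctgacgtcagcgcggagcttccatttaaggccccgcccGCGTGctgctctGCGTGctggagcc

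The paired elements lie 85 bases before the start site of Txnip and were found in 16 of all 32851 windows, 0.0487%. This motif was added after values had been seen, so its presence in Txnip is described only. The Arrdc4 window held a single E-box, which 7.15% of all windows hold, and the Ldha window shown held 2. Another Ldha window, chr7:46846832-46847131, is not shown and held no E-box. RefSeq windows were matched for 36 of the 38 genes, 54 windows in all. Of these 54, the E-box was in 13%, its core alone or within it in 44.4% (19.6% of all windows), the other core in 57.4% (32.4% of all windows) and the TATA box in 3.70% (13.6% of all windows). These matches describe the letters only, and the data hold no measure of binding.

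Glycogen genes differed little in mean between the groups. None of the 7 was at an unadjusted p under 0.05 and all 7 overlapped between the groups, with a median log2 difference of 0.08. Glycogen synthase, Gys1, averaged 37.9 ± 2.25 TPM with western diet and 36.7 ± 2.28 TPM in control. Glycogenin, Gyg, which primes the chain, averaged 96.2 ± 7.23 TPM with western diet and 92.2 ± 3.93 TPM in control. The branching enzyme, Gbe1, averaged 17.8 ± 1.5 TPM with western diet and 16.7 ± 1.33 TPM in control.

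Ugp2, which makes the UDP-glucose donor, had the smallest p of the glycogen genes, at 112, 130, 109 and 128 TPM with western diet, against 110, 105, 112 and 109 TPM in control. Western diet replicates 2 and 4 stood above the rest (limma adjusted p = 0.581). On the breakdown side, the muscle phosphorylase Pygm averaged 204 ± 24.1 TPM with western diet and 204 ± 8.09 TPM in control. Pygb, the brain-type phosphorylase, had the highest mean of the glycogen genes, at 253, 262, 241 and 201 TPM with western diet, against 225, 201, 231 and 241 TPM in control. Western diet replicate 4 was again the lowest of its group. Phka1, the muscle regulatory subunit of phosphorylase kinase on the X chromosome, averaged 8.87 ± 1.21 TPM with western diet and 8.17 ± 1.22 TPM in control.

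Summed by step, the arrestin-domain genes were at 186 ± 79.6 TPM with western diet and 109.9 ± 43.5 TPM in control, mostly from Txnip. Upper glycolysis summed to 2075 ± 209 TPM with western diet and 2006 ± 99.1 TPM in control, and lower glycolysis to 4307 ± 229 TPM with western diet and 4446 ± 173 TPM in control. Lactate genes summed to 695 ± 91.3 TPM with western diet and 665 ± 33.2 TPM in control, and glycogen genes to 724 ± 52.6 TPM with western diet and 692 ± 26.1 TPM in control. All 7 sums overlapped between the groups.

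Western diet replicate 4, alone in its group in carrying Y-linked transcripts, stood apart from the other 3 across these genes. It was the lowest of the 8 libraries for 15 of 34 genes and the highest for none, and 25 of 34 lay below the control mean. In western diet replicates 1, 2 and 3, 22 to 24 of 34 genes lay above the control mean. The median over the 34 genes was -0.16 on the log2 scale relative to the control mean in replicate 4 and 0.06 to 0.10 in the other 3. Over all genes tested, the same median was -0.07 in replicate 4 and 0.05 to 0.16 in the other 3. Replicate 4 also had the largest mitochondrial share of TPM, 39.3%, the lowest sum of ventricular markers, 41040 TPM, and the highest sum of kidney markers, 79.0 TPM, where replicates 1, 2 and 3 had 9.02 to 14.2 TPM and the controls 0 to 0.685 TPM. Their part in the lower values was not tested. Control replicate 2 was the lowest of the 8 for 12 of 34 genes, with a median of -0.08.

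**Figure D5:**
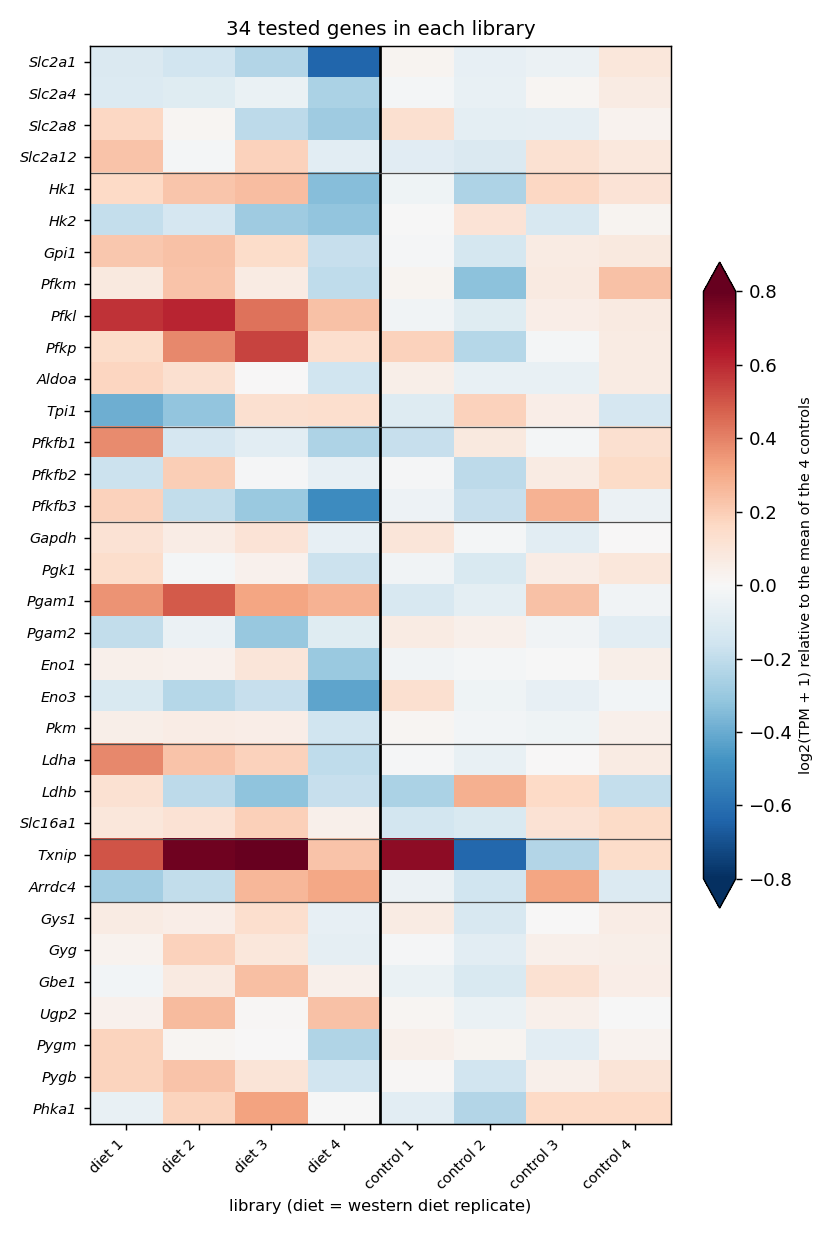
The 34 tested genes in each library as log2(TPM + 1) relative to the mean of the 4 controls, western diet libraries left of the line and controls right of it; the colour scale ends at -0.8 and 0.8. The column of western diet replicate 4 is mostly below 0, while Pfkl and Pgam1 are above 0 in all 4 western diet columns.

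No gene of the neighbouring pathways passed the test either. Of 90 other genes in 8 lists of transporters, side branches and regulators, 68 were tested, and none was at a limma adjusted p under 0.05 in either direction. Their median log2 difference was 0.09, 4 were at an unadjusted p under 0.05, all of them higher, and 1 of 68 did not overlap between groups, against the backgrounds of 11.7% and 6.60% given above. The 4 were Gfpt2, Mlxip, Mef2d and Stbd1. Gfpt2, which opens the hexosamine branch, was at 7.95, 5.92, 5.16 and 3.96 TPM with western diet, against 2.72, 3.18, 4.67 and 3.79 TPM in control (limma adjusted p = 0.280). Mlxip, the MondoA gene, averaged 9.07 ± 1.27 TPM with western diet and 7.03 ± 0.985 TPM in control (limma adjusted p = 0.347). Stbd1, which tethers glycogen to membranes, averaged 6.55 ± 2.43 TPM with western diet and 4.30 ± 0.684 TPM in control (limma adjusted p = 0.415).

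Mef2d, a muscle transcription factor, averaged 35.7 ± 4.47 TPM with western diet and 29.2 ± 4.39 TPM in control (limma adjusted p = 0.403). The gene that did not overlap was Pgd of the pentose phosphate pathway, at 12.6 ± 0.635 TPM with western diet and 10.9 ± 0.613 TPM in control (limma adjusted p = 0.439), and 7 of the 8 genes of that pathway were higher in mean, where 7286 of all 10969 genes were. Tbc1d4, which gates GLUT4 release from storage vesicles, averaged 24.9 ± 5.86 TPM with western diet and 19.3 ± 3.18 TPM in control (limma adjusted p = 0.483). The mitochondrial pyruvate carrier genes Mpc1 and Mpc2 were at 554 ± 42.8 and 371 ± 26.6 TPM with western diet, against 604 ± 20.1 and 405 ± 13.1 TPM in control. Bpgm, the mutase that makes 2,3-bisphosphoglycerate in red cells, was highest in western diet replicate 1, at 29.8 TPM, with 13.1 to 16.2 TPM in the other 3, against 12.6 to 15.8 TPM in control. The 6 red cell markers summed to 14260 TPM in that library, against 1975 to 5283 TPM in the other 7. None of the 9 other transporter genes reached the filter on low values.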

How the data were processed

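Heart RNA was captured by its poly(A) tail and made into stranded libraries, per the labels' protocols. The authors deposited a TPM value per gene and library, and kallisto, DESeq2 and the build GRCm38 are named in the submitters' processing notes without roles or versions. TPM removes read depth, so no count model was used. Values were analysed as log2(TPM + 1) with limma 3.58.1 (R 4.3.3), western diet minus control, with an intensity trend in the variance prior. Genes at 1 TPM or more in at least 4 of 8 libraries entered the fit, and p-values were adjusted by Benjamini and Hochberg over all 10969 such genes, with a threshold of 0.05. A fold change on this scale understates the change of low genes. Names and gene coordinates came from GENCODE vM21 on GRCm38, which named 29811 of 30153 genes. Near-identical copies were rows whose transcripts matched a gene at 90% identity or more over at least 50% of their length (BLAST 2.17.0).

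The members, gene lists and tests were chosen with earlier results of these data known. All members are named; values per library are given for those whose groups did not overlap, those at an unadjusted p under 0.05, the highest of each step and 8 chosen genes, including Slc2a1, Slc2a4, Ldha and Txnip. Of the neighbouring lists, up to 3 genes per list with the smallest p could be named. Some other values per library were added after they were seen, as were the motif of paired elements and the choice of promoters to print. Alternatives changed the pseudocount, filter, scaling, variance prior and library weights, left out each library in turn or added near-identical copies. A term for Y-linked transcripts and the omission of 3 libraries with atrial transcripts were added after the data were seen. The fit was tested on simulated data. Tables and plots used Python 3.11.15, pandas 2.3.3 and matplotlib 3.10.9.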

Additional observations from a re-analysis of the deposited data

Results flagged for a closer look

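Among 76 groups of 4 values examined, 5 held a library far from the other 3, where chance gives about 1 in 20. Western diet replicate 4 accounted for 3 of them, all low. It had 37.4 TPM of Hk1 against 53.4 to 56.7 TPM in the rest of its group, 90.5 TPM of Eno1 against 114 to 119 TPM, and 488 TPM of Pkm against 563 to 568 TPM. Control replicate 3 accounted for the other pair, with 1.27 TPM of Slc2a3 against 0.693 to 0.745 TPM in the other controls and 192 TPM of Pygm against 207.1 to 209.7 TPM.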

How the results depend on the processing

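No paired analysis was possible because the labels give no replicate numbers shared between the groups. Over all genes, 33 passed an adjusted p of 0.05 with limma. This count was 5 without a filter, 15 with a mean of at least 5 TPM, 61 after quantile normalization, 108 with library weights and 95 at an adjusted p under 0.10. With the alternatives chosen after seeing the data, it was 54 with a term for Y-linked transcripts and 5 without the 3 libraries with atrial transcripts. Leaving out 1 library at a time gave 8 to 95, the lowest without control replicate 4 and the highest without western diet replicate 4. Of the calls, 75.8% were higher with western diet, against 63.3% after median-of-ratios scaling and 65.6% after quantile normalization.

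Of the 38 genes, 0 passed, with 7 at an unadjusted p under 0.05. The count was 1, Pfkl each time, after median-of-ratios scaling, after quantile normalization, with library weights and at an adjusted p under 0.10, and 0 to 1 when 1 library was left out. The log2 differences of Pfkl were then 0.39 after median-of-ratios scaling, 0.40 after quantile normalization and 0.50 with library weights. Hk1 was at -0.0053 after median-of-ratios scaling, at -0.34 with the Y-linked term and at -0.0086 to 0.21 when 1 library was left out. Ldha was at -0.20 with the Y-linked term. Arrdc4 was at -0.0291 after median-of-ratios scaling, -0.0441 after quantile normalization, -0.0041 with library weights and -0.0676 to 0.13 when 1 library was left out. The Y-linked term lowered the median of all genes by 0.13, and its estimate of diet rests on western diet replicate 4 alone. No gene of the neighbouring lists passed under any of these settings. Over all members and settings, 19 of the 34 members changed sign in at least 1 setting, none with a log2 difference over 0.149 in size. The causes were not tested. With 4 libraries per group and no depth in TPM, a gene that did not pass may still differ by an amount within its interval.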
